A study of Homo sapiens with 5 samples.

Results

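Chromosome 21 is the smallest human autosome, and 164 of its genes were measurable in a set of 3 related renal cell carcinoma lines. They were read through 326 of the 41091 probe sets that a platform table assigns to exactly 1 gene, and were taken where the RefSeq gene table places the gene on chromosome 21 and the log2 signal reached 6 on at least 2 of the 5 arrays. Of 509 such probe sets (237 genes) before that minimum, 183 probe sets and all the probe sets of 73 genes lay below it. The 5 genes COL6A1, COL6A2, COL18A1, MX1 and MX2, with 14 probe sets, were left out by the rule. Over the whole genome 27932 probe sets and 15092 genes passed the same minimum. The chromosome and its comparison with SN12C were chosen because earlier results of these same arrays showed it standing high, so the differences from SN12C are given below as a description, without a test.

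The arrays are Affymetrix expression arrays of total RNA from established human cell lines. SN12C, the parental line, is labelled non-metastatic and had 2 arrays labelled as biological replicates. LM1, the lung-metastatic line of generation 1, had 1 array, and LM2, the lung-metastatic line of generation 2, had 2 arrays labelled as biological replicates. The labels give no treatment, genotype or culture history, and whether replicates were separate cultures is not stated, so the spread between them may be technical. Precision is limited by the number of arrays, and LM1 stands on a single one. The stated purpose was to find expression that goes with rising metastatic activity.

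In human cells chromosome 21 is best known for gene dosage: an extra copy causes Down syndrome, in which transcripts of many of its genes stand above their normal level. Its long arm holds a run of class II cytokine receptor genes for interferons and interleukin 10, together with genes for antioxidant defence, purine and folate metabolism, splicing, ribosome assembly and protein turnover. Most of these genes are housekeeping genes active in nearly every cell type, while others, such as keratin-associated protein, claudin and trefoil factor genes, are restricted to particular tissues. DNA copy number was not analysed here.

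Across the series the array medians lay between 6.51 and 6.57 log2 units, and the markers of the labelled cell type were present on every array: PAX8, a renal lineage factor, at 9.19 to 9.82, KRT8 at 12.46 to 13.21, KRT18 at 14.04 to 14.72 and VIM at 13.97 to 14.37. PAX2 was dim at 6.34 to 6.46, and CA9 lay below the minimum. Of the leukocyte markers PTPRC lay below the minimum, while CD3D (6.46 to 6.65) and CD14 (6.19 to 7.16) were dim. Of the endothelial markers CDH5 lay below it, PECAM1 read 7.07 to 7.65 and VWF 6.22 to 6.70. Of the lung epithelial markers SCGB1A1 lay below it, NKX2-1 read 6.72 to 7.18, SFTPC 8.05 to 8.29 and SFTPB 7.71 to 9.04, and the part of any such cells in the results was not tested. RNA quality differed on 1 array. On the LM1 array the 3' probe set of beta-actin read 3.43 log2 units above the 5' probe set, where the remaining 4 arrays had 0.07 to 0.47. The same excess for GAPDH was 2.09, where the remaining 4 had -0.07 to 0.14. These values stand beside every LM1 result below, and their part in those results was not tested.

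The promoters of 6 of these genes are shown from 2 neighbourhoods: the cytokine receptor run with SON nearby, and the neighbours GABPA and ATP5PF on opposite strands. Each window is the 250 bases before the first start listed for the gene by RefSeq (GRCh38.p14), written 5' to 3' on the strand of the gene. Capitals mark the ETS-type motif CCGGAAG or, on the other strand, CTTCCGG, the sequence bound by the GABPA protein and other ETS factors. IL10RB lies at chr21:33266117-33266366 (plus strand), IFNAR1 at chr21:33324145-33324394 (plus), IFNGR2 at chr21:33403163-33403412 (plus) and SON at chr21:33542788-33543037 (plus). GABPA lies at chr21:25734722-25734971 (plus) and ATP5PF at chr21:25735055-25735304 (minus).
IL10RB: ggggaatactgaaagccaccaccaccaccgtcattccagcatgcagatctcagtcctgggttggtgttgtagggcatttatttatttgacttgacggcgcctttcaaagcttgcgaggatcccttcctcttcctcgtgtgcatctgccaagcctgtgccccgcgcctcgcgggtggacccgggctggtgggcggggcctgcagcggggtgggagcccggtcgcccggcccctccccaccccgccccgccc
IFNAR1: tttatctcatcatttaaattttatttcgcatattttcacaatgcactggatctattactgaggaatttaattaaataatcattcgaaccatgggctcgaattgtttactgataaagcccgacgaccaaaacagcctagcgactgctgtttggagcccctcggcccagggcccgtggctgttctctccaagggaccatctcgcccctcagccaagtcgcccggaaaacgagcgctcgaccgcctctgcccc
IFNGR2: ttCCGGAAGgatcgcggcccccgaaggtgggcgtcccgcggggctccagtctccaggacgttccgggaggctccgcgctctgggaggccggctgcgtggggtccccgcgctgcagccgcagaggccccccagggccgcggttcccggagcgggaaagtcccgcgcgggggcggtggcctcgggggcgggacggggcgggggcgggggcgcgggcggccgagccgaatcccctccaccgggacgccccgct
SON: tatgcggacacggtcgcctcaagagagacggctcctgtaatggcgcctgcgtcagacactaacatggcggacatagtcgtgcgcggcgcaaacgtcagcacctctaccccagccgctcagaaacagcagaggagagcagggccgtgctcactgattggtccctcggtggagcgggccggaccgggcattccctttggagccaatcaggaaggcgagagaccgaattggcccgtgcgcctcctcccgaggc
GABPA: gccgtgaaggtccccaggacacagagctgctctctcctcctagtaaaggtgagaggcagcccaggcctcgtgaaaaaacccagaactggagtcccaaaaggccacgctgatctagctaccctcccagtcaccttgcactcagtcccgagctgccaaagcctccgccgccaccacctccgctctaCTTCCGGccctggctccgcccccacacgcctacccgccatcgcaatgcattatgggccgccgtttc
ATP5PF: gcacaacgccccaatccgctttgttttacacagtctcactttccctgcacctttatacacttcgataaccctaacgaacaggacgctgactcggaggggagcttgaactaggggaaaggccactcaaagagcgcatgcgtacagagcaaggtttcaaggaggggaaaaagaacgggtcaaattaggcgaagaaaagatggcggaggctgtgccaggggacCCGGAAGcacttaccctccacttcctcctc
The windows of IFNGR2, GABPA and ATP5PF hold 1 such motif each, and those of IL10RB, IFNAR1 and SON hold these letters nowhere. The window of SON overlaps that of GART, its neighbour on the other strand, by 145 bases, and the windows of GABPA and ATP5PF do not overlap. By the coordinates and strands, the window of GABPA lies past the first start of ATP5PF, and that of ATP5PF past the first start of GABPA.

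Transcripts of chromosome 21 stood higher in LM2 than in SN12C over most of the chromosome, with BACE2, TMEM50B and CBR3 in the lead and NRIP1 and ADAMTS1 on the other side. The median difference over the 164 genes, each taken through its passing probe set of highest mean, was 0.30 log2 units, against 0.03 over all 15092 genes. Against SN12C replicate 1 the median was 0.38 (0.05 over all genes), and against replicate 2 it was 0.22 (0.00 over all genes). Both LM2 arrays lay above both SN12C arrays for 86 of the 164 genes, or 52.4%, where the same held for 25.2% of all genes. Both LM2 arrays lay below both SN12C arrays for 8 genes, or 4.88%, against 14.1% of all genes. Those 8 were NRIP1, ADAMTS1, KRTAP7-1, B3GALT5, SLC37A1, LINC00313, TSPEAR and KRTAP10-11. In limma 0 of 27932 probe sets passed an adjusted p of 0.05 for LM2 against SN12C, which is 0.0% (lowest adjusted p = 0.30, with 2864 at an unadjusted p under 0.05). The count was 5 with arrays centred on their medians and 6862 without SN12C replicate 2. Since the comparison with SN12C chose the chromosome, nothing is read from these shares about its standing.

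The size of this median moved with the signal level. With no minimum on the signal, which adds the dim genes, the median was 0.06. Among the 88 genes whose mean over the 5 arrays was at least 8, a limit chosen after the data were seen, the median difference was 0.65 log2 units, or 1.57-fold, with the middle of the genes (25th to 75th percentile) from 0.43 to 0.84. Over all 8437 genes of that level the median was 0.14, or 1.10-fold, with a 25th to 75th percentile of -0.08 to 0.37. Both LM2 arrays lay above both SN12C arrays for 77 of the 88, or 87.5%, against 35.2% of all genes of that level. The mean includes the LM1 and LM2 arrays, and 8 of the 88 had an SN12C mean under 8, among them CBR3, DOP1B, ADARB1, ITGB2 and IFNAR1. With the 80 genes of SN12C mean 8 and over instead, the median was 0.63, against 0.12 over all such genes, and 70 stood above without overlap, or 87.5%, against 33.3%. The 88 genes lay close together: 63 differed by 0.3 to 1 log2 unit, 13 by more than 1, and 6 stood under 0. Among the 76 genes of mean under 8 the median was -0.01, against -0.03 over all such genes, and 9 stood above without overlap, which is 11.8% against 12.5% of all such genes.

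**Figure D1:**
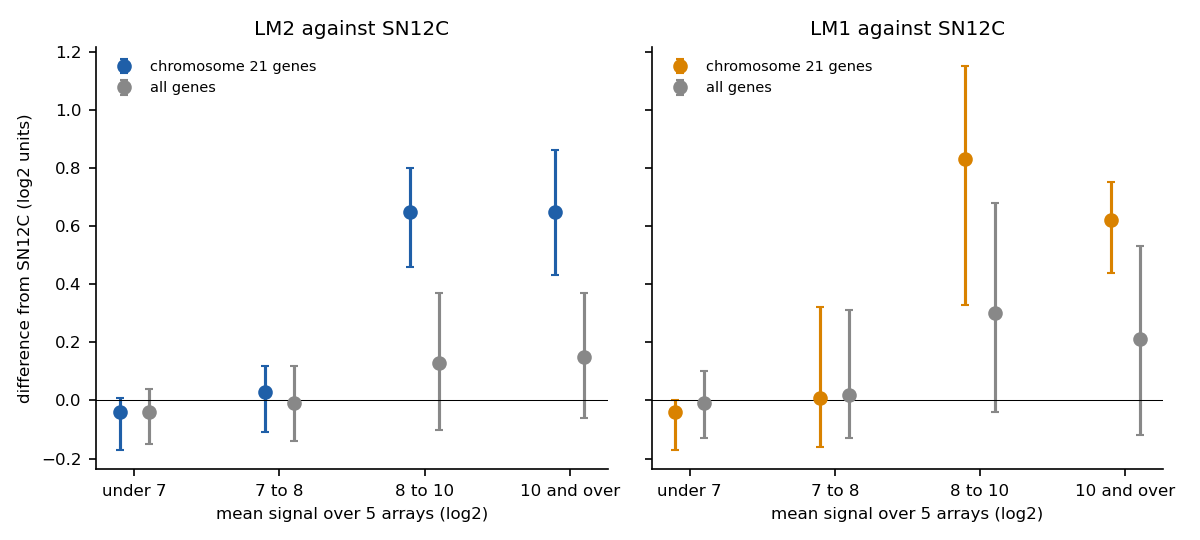
Difference of LM2 (left) and LM1 (right) from the SN12C mean, in log2 units, for genes grouped by their mean signal over the 5 arrays. Points are medians over genes and bars the 25th to 75th percentile, coloured for chromosome 21 and grey for all genes. In LM2 the chromosome 21 median is -0.04 under 7 and 0.03 from 7 to 8, and 0.65 in both brighter groups, where all genes have 0.13 and 0.15.

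In the plot by signal level, the LM2 median of chromosome 21 genes was near 0 in both dimmer groups. It was -0.04 for the 37 genes under 7, 0.03 for the 39 genes from 7 to 8, 0.65 for the 49 genes from 8 to 10 and 0.65 for the 39 genes of 10 and over. Of the 49 genes from 8 to 10, 42 stood above SN12C without overlap, where 33.4% of all genes of that level did, and of the 39 brightest, 35 did, against 37.6%. The kind of gene followed the signal. The 128 protein-coding genes had a median of 0.46 and 80 of them stood above without overlap, or 62.5%, against 26.7% of all protein-coding genes. The 33 long non-coding RNA genes had a median of -0.01 with 5 above, or 15.2%, against 10.3% of all such genes.

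The SN12C arrays were further apart than the LM2 arrays for these genes. Among the 88 brighter genes SN12C replicate 2 lay above replicate 1 for 71, with a median gap of 0.47 log2 units between the SN12C arrays and 0.08 between the LM2 arrays. The LM2 median was 0.80 against replicate 1 and 0.41 against replicate 2, where all genes of that level had 0.27 and 0.01. The LM2 mean lay above SN12C replicate 2 for 84 of the 88, or 95.5%, against 51.8% of all genes of that level. It lay above replicate 1 for 81 of the 88, or 92.0%, against 71.4% of all genes of that level. The difference was therefore present against each parental array, with a size that depended on which was used.

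The genes with the largest differences had unrelated roles. BACE2, an aspartyl protease related to beta-secretase, read 8.74 and 9.13 in SN12C, 10.74 in LM1 and 10.41 and 10.51 in LM2, a difference of 1.53 or 2.88-fold. TMEM50B read 8.92 and 10.09 in SN12C, 10.01 in LM1 and 11.02 and 10.99 in LM2. CBR3, a carbonyl reductase, read 7.76 and 8.07 in SN12C, 10.46 in LM1 and 9.42 and 9.30 in LM2. The LM2 arrays thus agreed closely for all 3. On these probe sets LM1 stood highest for BACE2 and CBR3 and between the SN12C arrays for TMEM50B. Another probe set of TMEM50B read 8.89 and 9.38 in SN12C, 10.81 in LM1 and 10.68 and 10.55 in LM2. The 4 probe sets of TMEM50B differed by 0.21 to 1.50 in LM2 and by 0.21 to 1.68 in LM1. Another probe set of BACE2 read 9.26 in LM1 and 9.45 and 9.38 in LM2. H2BC12L, a histone H2B gene, read 9.91 and 10.62 in SN12C, 9.87 in LM1 and 11.68 and 11.72 in LM2. Its probe set can bind several transcripts and histone H2B genes are near-identical copies, so which gene gave this signal is uncertain. DOP1B read 7.81 and 7.06 in SN12C, 8.59 in LM1 and 8.91 and 8.83 in LM2, a difference of 1.43. DONSON, a protein of the DNA replication fork, read 8.76 and 10.30 in SN12C, 10.04 in LM1 and 10.68 and 10.79 in LM2, so that its SN12C arrays lay further apart than LM2 lay from the nearer of them. LINC01694, a non-coding RNA, was the only gene to pass the minimum without an SN12C array, at 5.33 and 5.36 in SN12C, 7.80 in LM1 and 6.24 and 6.75 in LM2, and was therefore bound to stand higher.

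At the minimum itself the values were near background. The last probe sets inside it, of CBR3-AS1, TFF1 and LOC102723380, had 6.01 as their value on the array second from the top and differences of 0.28, 0.00 and -0.14. The nearest outside, of PKNOX1, LINC00334 and HEMK2, had 5.94, 5.97 and 5.97 and differences of 0.63, -0.02 and -0.02. Of the 164 genes, 155 were at 6 or more on all 5 arrays. Some genes, nearly all dim, had values equal in every deposited digit: 26 in both LM2 arrays, 7 in both SN12C arrays and 2 on all 5 arrays. The origin of the ties is not stated. An equal pair has a spread of 0, which lowers the spread estimated from it, and without genes tied within a line the median was 0.44.

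All 4 cytokine receptor chains encoded side by side on the chromosome stood higher in LM2. These are the subunits through which type I interferon (IFNAR1, IFNAR2), interferon gamma (IFNGR2) and interleukin 10 and related cytokines (IL10RB) signal. IFNAR1 read 7.55 and 8.10 in SN12C, 9.11 in LM1 and 8.34 on both LM2 arrays. IFNAR2 read 9.00 and 9.05 in SN12C, 9.78 in LM1 and 9.36 and 9.40 in LM2. The lowest LM2 value of each lay above the highest SN12C value, and LM1 stood highest for both. IL10RB read 8.58 and 9.15 in SN12C, 9.54 in LM1 and 9.65 and 9.63 in LM2. IFNGR2 read 10.27 and 10.71 in SN12C, 10.97 in LM1 and 10.93 and 11.15 in LM2. Through the brightest probe sets, differences of LM2 from SN12C ran from 0.35 for IFNAR2 to 0.77 for IL10RB, with a median of 0.53 for the list. Read so, all 4 lay above SN12C without overlap, against 25.2% of all genes.

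Interferon pathway genes encoded elsewhere stood on both sides of SN12C. Among 5 such genes IFNGR1, the partner chain of IFNGR2, differed by -0.04, the kinases JAK1, JAK2 and TYK2 by -0.55, 0.00 and 0.04, and the transcription factor subunit IRF9 by 0.21. JAK1 read 11.83 and 12.16 in SN12C and 11.38 and 11.52 in LM2, below without overlap. The 4 receptor chains were above without overlap through their brightest probe sets.

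**Figure D2:**
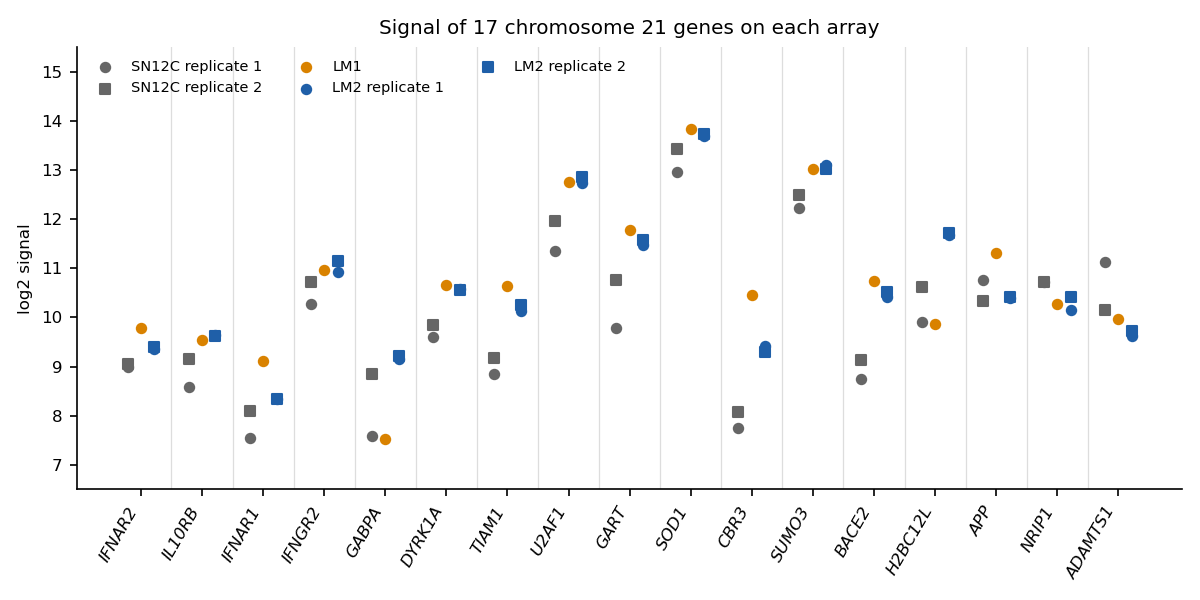
Log2 signal of 17 chromosome 21 genes on each of the 5 arrays, grey for SN12C, orange for LM1 and blue for LM2, with circles for replicate 1 and squares for replicate 2. For most genes the LM2 points sit above both grey points, as for BACE2 at 10.41 and 10.51 against 8.74 and 9.13, while APP, NRIP1 and ADAMTS1 do not.

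RNA processing and ribosome assembly genes stood higher in both metastatic lines. Of 14 listed, 13 were measured (RBM11 was not), with an LM2 median of 0.70. Above SN12C without overlap lay 12, or 92.3%, against 25.2% of all genes, and 0 lay below, against 14.1%. U2AF1, which recognises the end of introns, read 11.36 and 11.97 in SN12C, 12.75 in LM1 and 12.73 and 12.85 in LM2, a difference of 1.13 or 2.18-fold. ADARB1, an RNA-editing deaminase, read 7.62 and 8.30 in SN12C, 9.70 in LM1 and 8.85 and 8.82 in LM2. MRPS6, a protein of the mitochondrial ribosome, read 10.21 and 11.07 in SN12C, 11.36 in LM1 and 11.53 and 11.46 in LM2. PWP2, a factor of small ribosomal subunit assembly, differed by 0.79, RRP1B and RRP1, both ribosomal RNA processing factors, by 0.77 and 0.51, and SON, a splicing scaffold, by 0.50. WDR4, a subunit of a transfer RNA methyltransferase, was the member whose arrays overlapped, at 10.18 and 10.72 in SN12C and 10.55 and 10.83 in LM2. The gene of MRPS6 overlaps that of SLC5A3, a myo-inositol transporter that read 9.17 and 10.12 in SN12C, 10.34 in LM1 and 10.87 and 10.93 in LM2, and their signals may share transcripts.

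Protein folding and turnover genes behaved alike. Of 11 listed, 10 were measured (DNAJC28 was not), with an LM2 median of 0.71. All 10 lay above SN12C without overlap, against 25.2% of all genes. USP16, a deubiquitinase of histone H2A, differed by 0.89, PSMG1, a proteasome assembly chaperone, by 0.86, HSPA13, a member of the HSP70 family, by 0.74 and USP25, another deubiquitinase, by 0.72. SUMO3, a small ubiquitin-like modifier, read 12.23 and 12.48 in SN12C, 13.01 in LM1 and 13.10 and 13.02 in LM2. VPS26C had the lowest value of the list, 0.16.

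Among metabolism and redox genes 13 of 15 were measured, with an LM2 median of 0.53. Above SN12C without overlap lay 11, or 84.6%, against 25.2% of all genes, and 0 lay below, against 14.1%. GART, the trifunctional enzyme of purine synthesis, read 9.79 and 10.77 in SN12C, 11.78 in LM1 and 11.48 and 11.57 in LM2, a difference of 1.25. SOD1, the cytosolic superoxide dismutase, read 12.96 and 13.42 in SN12C, 13.83 in LM1 and 13.69 and 13.73 in LM2, a difference of 0.53. CBR1, a carbonyl reductase beside CBR3, read 8.65 and 10.16 in SN12C, 10.15 in LM1 and 10.47 and 10.58 in LM2, so that most of its difference of 1.12 came from SN12C replicate 1. PFKL, the liver-type phosphofructokinase, differed by 0.80, SLC19A1, the reduced folate carrier, by 0.67 and LSS, an enzyme of sterol synthesis, by 0.63. CBS, which makes cystathionine, overlapped between the lines at 10.11 and 9.18 in SN12C and 10.15 and 10.07 in LM2. FTCD, an enzyme of histidine breakdown in liver, read 7.70 to 7.71 on all 5 arrays. PDXK and AGPAT3 were not measured.

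Of 9 kinase and signalling genes 6 were measured, with an LM2 median of 0.61. Above SN12C without overlap lay 5, or 83.3%, against 25.2% of all genes. TIAM1, an exchange factor that activates the GTPase RAC1, read 8.85 and 9.17 in SN12C, 10.63 in LM1 and 10.12 and 10.25 in LM2, a difference of 1.18. DYRK1A, a dual-specificity kinase, read 9.61 and 9.85 in SN12C, 10.66 in LM1 and 10.57 and 10.55 in LM2. On these probe sets every LM1 and LM2 value of both genes lay above every SN12C value. A second probe set of TIAM1 read 7.94 and 7.73 in SN12C, 7.61 in LM1 and 8.47 and 8.32 in LM2. The 4 probe sets of DYRK1A differed by 0.14 to 0.84 in LM2 and by -0.42 to 0.93 in LM1. SIK1, a salt-inducible kinase, differed by 0.65, and ITSN1, an endocytic scaffold, by 0.57. RIPK4 was the exception at -0.12, and RCAN1, an inhibitor of calcineurin, read 13.83 and 13.89 in SN12C and 13.92 and 14.07 in LM2. PDE9A, TTC3 and S100B were not measured through a probe set of 1 gene.

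Transcription factor and chromatin genes were more mixed. Of 19 listed, 15 were measured, with an LM2 median of 0.36. Above SN12C without overlap lay 10, or 66.7%, against 25.2% of all genes, and 1 lay below, or 6.67%, against 14.1%. HEMK2, a methyltransferase formerly named N6AMT1, read 7.85 and 8.34 in SN12C, 9.10 in LM1 and 9.17 and 9.32 in LM2. GABPA, the DNA-binding subunit of an ETS factor of mitochondrial and housekeeping genes, read 7.58 and 8.84 in SN12C, 7.53 in LM1 and 9.16 and 9.21 in LM2. BRWD1, a bromodomain protein, differed by 0.93, CHAF1B, a subunit of the histone chaperone CAF-1, by 0.90, and HMGN1, a nucleosome-binding protein, by 0.32. NRIP1, a corepressor of nuclear receptors, was the member below, at 10.72 and 10.71 in SN12C, 10.27 in LM1 and 10.14 and 10.41 in LM2. ETS2, MORC3, SIM2 and DNMT3L overlapped between LM2 and SN12C. ERG, RUNX1, OLIG1 and OLIG2 were not measured through a probe set of 1 gene that passed the minimum.

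Surface, adhesion and extracellular genes had the lowest median of the role lists, with members far out on both sides. Of 18 listed, 14 were measured, with an LM2 median of 0.02, and 4 lay above SN12C without overlap (BACE2, SLC5A3, ITGB2 and PTTG1IP) and 1 below. The share above was 28.6%, near the 25.2% of all genes, and the share below 7.14%, against 14.1%. ADAMTS1, a secreted metalloprotease, was the one below, at 11.13 and 10.15 in SN12C, 9.97 in LM1 and 9.63 and 9.73 in LM2, 0.51-fold of SN12C. ITGB2, the beta-2 integrin chain, read 7.29 and 7.62 in SN12C, 8.44 in LM1 and 8.33 and 8.48 in LM2. APP, the amyloid precursor protein, read 10.77 and 10.33 in SN12C, 11.31 in LM1 and 10.40 and 10.42 in LM2, a difference of -0.14. Its other probe sets differed by 0.36 and 1.52, and the difference of the first was 0.08 without SN12C replicate 1. The members CXADR, JAM2, NCAM2, TMPRSS2, TMPRSS3, ICOSLG, TFF1 and TFF3 were all under a mean of 8 and overlapped between LM2 and SN12C. ADAMTS5, CLDN8, CLDN14 and CHODL were not measured.

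Among the 88 brighter genes, 11 did not lie above SN12C without overlap in LM2. Besides NRIP1, ADAMTS1, APP, WDR4, CBS, ETS2 and MORC3 these were LOC105379499, URB1-AS1, SMIM11 and DIP2A. ETS2, an ETS-family factor, read 9.84 and 9.28 in SN12C, 8.91 in LM1 and 9.87 and 9.65 in LM2. MORC3 read 9.21 and 8.74 in SN12C, 8.96 in LM1 and 9.45 and 9.21 in LM2. DIP2A read 8.88 and 8.48 in SN12C, 8.92 in LM1 and 8.54 and 8.37 in LM2, and its 7 probe sets ranged from -0.23 to 1.26. The further genes below without overlap were dim: KRTAP10-11 read 7.52 and 6.89 in SN12C and 6.84 and 6.74 in LM2, KRTAP7-1 7.03 and 6.42 against 6.33 and 6.34, and B3GALT5 6.84 and 6.48 against 6.31 and 6.28. Without SN12C replicate 2, the count of genes below was 49, against 8 with both SN12C arrays, and the share over all genes was 35.2%, against 14.1%.

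Products of chromosome 21 genes that work in complexes with products of other chromosomes could be set beside them. U2AF1 differed by 1.13 in LM2, and U2AF2, its partner in intron recognition, by -0.14. CHAF1B differed by 0.90, and the other CAF-1 subunits CHAF1A and RBBP4 by 0.25 and -0.32. PFKL differed by 0.80, and the muscle and platelet isoenzymes PFKM and PFKP by -0.54 and 0.05. In each of these the chromosome 21 product stood above its partners through the brightest probe sets, in LM1 as well. The 4 probe sets of U2AF1 differed by 0.16 to 1.13 in LM2 and by -0.38 to 1.08 in LM1, where U2AF2 differed by -0.01. GABPA differed by 0.98, against 0.05 and 0.38 for GABPB1 and GABPB2, the subunits that carry its activation domain. In LM1 the order was the reverse, at -0.68 for GABPA against 0.49 and 0.85. SOD1 differed by 0.53, and the mitochondrial enzyme SOD2 by -0.82. There too LM1 had the reverse order, at 0.65 for SOD1 and 1.28 for SOD2. The SOD2 probe set read 7.87 and 7.36 in SN12C, 8.90 in LM1 and 6.71 and 6.88 in LM2. The SOD2 differences thus rest on a probe set that was dim in SN12C and LM2. CCT8 differed by 0.42, and 6 other subunits of the CCT chaperonin, which folds actin and tubulin, by 0.01 to 0.32 (TCP1 was not measured). The ATP synthase subunits ATP5PF and ATP5PO differed by 0.44 and 0.37, within the range of -0.05 to 0.50 of 7 subunits encoded elsewhere. These are differences of each gene from its own level in SN12C, and levels of different genes were not compared.

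**Figure D3:**
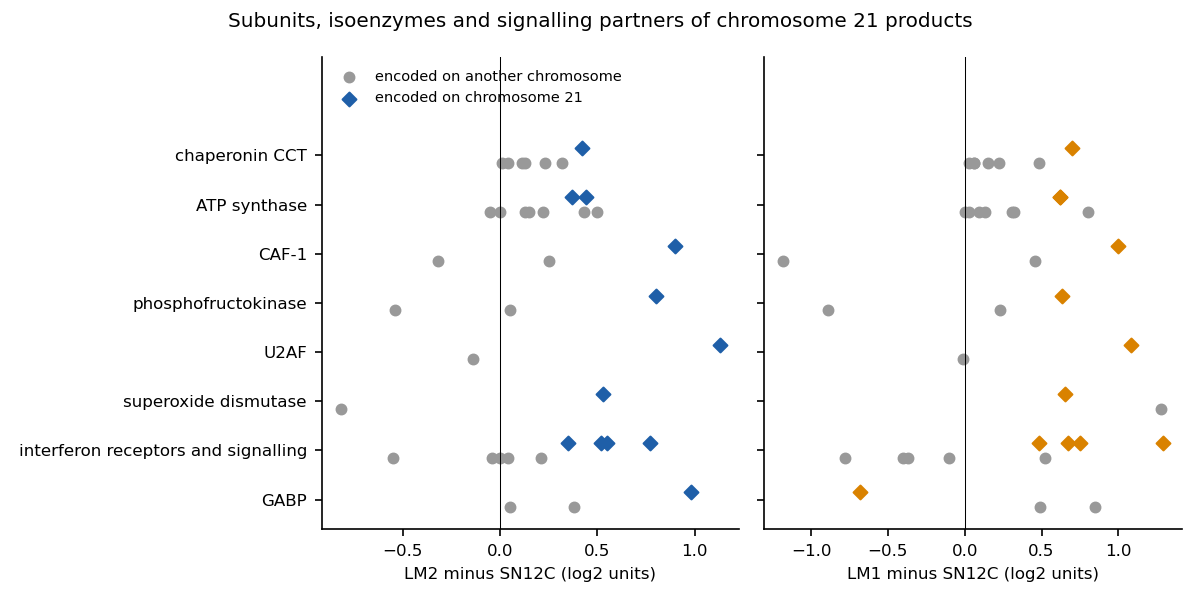
Difference from the SN12C mean in log2 units, LM2 on the left and LM1 on the right, for subunits, isoenzymes and signalling partners. Diamonds are products of chromosome 21 and grey circles products of other chromosomes. In LM2 every diamond lies to the right of 0, from 0.35 for IFNAR2 to 1.13 for U2AF1, while the circles run from -0.82 for SOD2 to 0.50 for ATP5F1D.

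Along the chromosome the LM2 median varied with the stretch, while the bright genes stood higher in each. With the genes ordered by start and cut into 4 blocks of 41 genes, the LM2 medians were 0.22 (LOC105379499 to EVA1C), 0.36 (TCP10L to DSCR10), 0.05 (KCNJ15 to CSTB) and 0.42 (RRP1 to PRMT2). The blocks differed in how many bright genes they held, 22, 28, 17 and 21. The KCNJ15 to CSTB block was thus close to the 0.03 of all genes. Among the bright genes the medians were 0.58, 0.57, 0.68 and 0.69, and 17, 26, 14 and 20 of them stood above SN12C without overlap. These are 77.3%, 92.9%, 82.4% and 95.2%, against 35.2% of all genes of that level. Over windows of 15 neighbouring genes the lowest median was 0.00, as from CLDN17 to TCP10L (keratin-associated protein genes among them) and from B3GALT5 to TMPRSS3, where 5 and 4 of the 15 genes were bright. The highest was 0.63, from ADARB1 to PRMT2 at the end of the long arm, with 11 bright genes. The window from IFNAR2 to SMIM11, which holds the cytokine receptors, GART and SON, had 0.55 with 14 bright genes. With each array centred on its median the block from KCNJ15 to CSTB stood at -0.04.

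**Figure D4:**
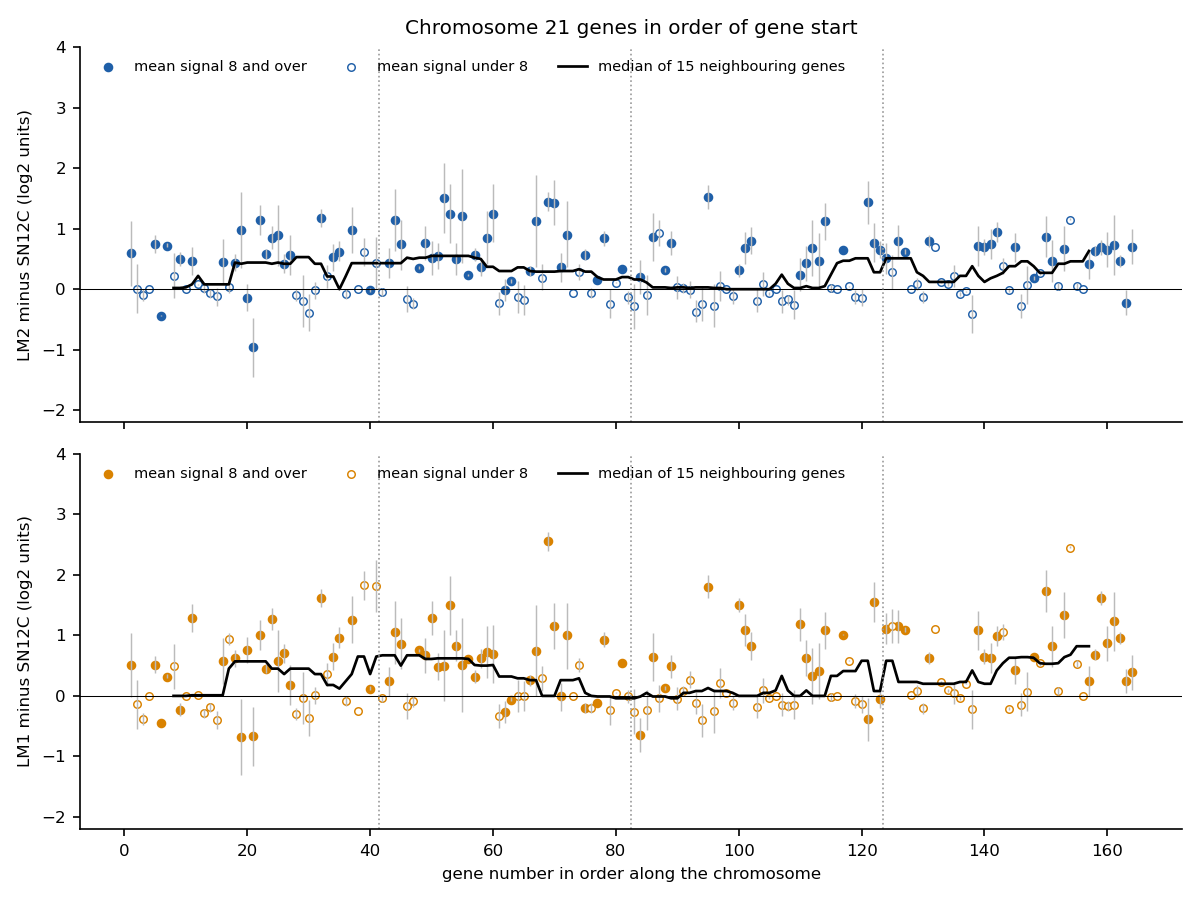
Difference from the SN12C mean in log2 units for each of the 164 genes in order along chromosome 21, LM2 above and LM1 below. Filled points are genes of mean signal 8 and over, open points dimmer genes, and grey bars reach to the difference from each SN12C array. The black line is the median of 15 neighbouring genes, from 0.00 to 0.63 in LM2, and dotted lines separate the 4 blocks of 41 genes.

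No other chromosome stood as high in these medians. Over the other 22 chromosomes (1 to 22 without 21, and X) the median LM2 difference ran from -0.14 for chromosome 4 (516 genes) to 0.22 for chromosome 14 (472 genes), against 0.30 for chromosome 21. For genes of mean 8 and over it ran from -0.19 for chromosome 4 to 0.38 for chromosome 14, against 0.65. These ranks restate the choice of the chromosome and are no support for it.

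**Figure D5:**
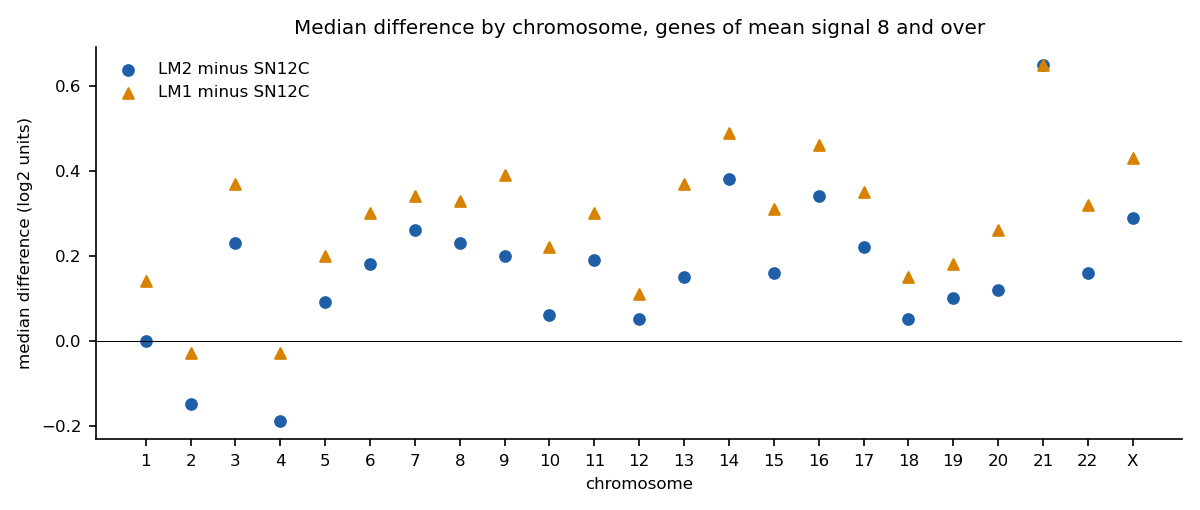
Median difference from the SN12C mean in log2 units by chromosome for genes of mean signal 8 and over, with blue circles for LM2 and orange triangles for LM1. Chromosome 21 has 0.65 for both lines, and the others lie between -0.19 and 0.38 in LM2 and between -0.03 and 0.49 in LM1.

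Most chromosome 21 genes also stood higher in LM1 than in SN12C, with the RNA processing genes in front. LM1 shares the SN12C arrays with the comparison above, so the likeness of the results is partly built in. The median difference was 0.31 log2 units, against 0.09 over all genes, and 0.35 and 0.22 against SN12C replicates 1 and 2. The LM1 array lay above both SN12C arrays for 90 of the 164 genes, or 54.9%, against 45.1% of all genes. It lay below both for 24, or 14.6%, against 20.8% of all genes. Among the 88 brighter genes the median was 0.65, against 0.26 over all genes of that level, and 68 lay above both SN12C arrays, or 77.3%, against 55.5%. In limma 0 of 27932 probe sets passed for LM1 against SN12C, or 0.0% (lowest adjusted p = 0.0734, with 6813 at an unadjusted p under 0.05). This count depended on the setting: it was 1303 after quantile normalization, 1989 with arrays centred, 5668 without SN12C replicate 1 and 8983 without SN12C replicate 2. On this array the 3' excess of beta-actin was 3.43 log2 units, and its part in these values was not tested.

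By role, LM1 stood highest for the RNA processing list. RNA processing and ribosome assembly genes had a median of 1.11, and all 13 lay above both SN12C arrays, against 45.1% of all genes. URB1, a factor of ribosome assembly, read 6.96 and 7.43 in SN12C, 9.02 in LM1 and 7.82 and 7.80 in LM2. MCM3AP, a messenger RNA export factor, read 9.17 and 9.42 in SN12C, 10.92 in LM1 and 10.02 and 9.96 in LM2. Through their brightest probe sets, these 2 genes, RRP1B and ADARB1 stood higher in LM1 than in LM2. A second probe set of RRP1B read 8.51 in LM1 and 9.45 and 9.29 in LM2, and another of MCM3AP 4.62 against 9.15 and 8.83. The second of URB1 read 6.61 in LM1 and 6.61 and 6.67 in LM2. Another of ADARB1 kept the order, at 7.38 in LM1 and 7.13 and 7.26 in LM2. The cytokine receptors had a median of 0.71 in LM1 (4 of 4 above), kinases 0.63 (4 of 6 above, 1 below), metabolism and redox 0.63 (10 of 13 above), and folding and turnover 0.54 (8 of 10 above, 1 below). Surface genes had a median of 0.35 (8 of 14 above, 2 below), and transcription factor and chromatin genes 0.13 (6 of 15 above, 3 below). Of all genes 45.1% lay above both SN12C arrays and 20.8% below. The shares above of the surface (57.1%) and transcription factor (40.0%) lists were the nearest to that. At the end of the long arm all 21 bright genes of the fourth block lay above both SN12C arrays, with a median of 0.87. Of all genes of mean 8 and over, 55.5% did.

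Different probe sets of 1 gene lay closer together in LM2 than in LM1 at the median, and in both lines some differed in sign. Of the 326 probe sets 183 stood above SN12C without overlap in LM2, against 25.2% of all probe sets, and 13 below, with a median of 0.32. Some of the 183, such as probe sets of BACE2 (4.99 and 5.10 in SN12C) and CSTB (5.60 and 5.45), passed the minimum without an SN12C array. They were therefore bound to stand higher and were not left out of the count. Of 81 genes with several probe sets, at most 7, all stood above 0 for 51 genes, all below 0 for 8, and 22 were mixed. The median range within a gene was 0.37 log2 units in LM2 and 1.06 in LM1, and it was over 1 for 7 genes in LM2 and 44 in LM1. For GART, the 5 probe sets ran from -0.05 to 1.66 in LM2 and from -2.28 to 1.50 in LM1. For MCM3AP, the 3 probe sets ran from -0.07 to 1.45 in LM2 and from -2.92 to 1.62 in LM1. For RCAN1, 1 of 3 probe sets read 12.45 and 13.31 in SN12C, 8.84 in LM1 and 13.19 and 13.55 in LM2, a difference of -4.04 in LM1. With the mean of all passing probe sets of a gene in place of the brightest, the LM1 median over the 164 genes was 0.12.

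Through the brightest probe set of each gene, LM2 and LM1 lay on opposite sides of both SN12C arrays in 6 of the 164 genes. That is a smaller share than the 5.8% of all genes, read in the same way. In each the LM2 arrays were above and the LM1 array below. PIGP, which takes part in making the GPI anchors of surface proteins, differed from the SN12C mean by 0.57 in LM2 and by -0.20 in LM1. BTG3, an antiproliferative protein, read 11.86 and 12.08 in SN12C, 11.74 in LM1 and 12.45 and 12.49 in LM2. The other 4 were GABPA and H2BC12L, whose values are given above, RCAN1 and VPS26C. Probe sets other than the brightest were not counted, and in further genes some of them lay on opposite sides. Among these were probe sets of USP16 (0.90 in LM2 and -3.61 in LM1) and RWDD2B (1.68 and -2.38). The brightest probe sets of both genes lay above SN12C in both lines.

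Between the metastatic lines themselves, a comparison that did not use SN12C, chromosome 21 genes showed no shared direction. The median of LM2 minus LM1 was -0.02 log2 units, against -0.07 over all genes. Both LM2 arrays lay above the LM1 array for 52 genes, or 31.7%, against 27.0% of all genes, and below it for 80, or 48.8%, against 51.9%. In limma 0 of 27932 probe sets passed, or 0.0% (lowest adjusted p = 0.10, with 6080 at an unadjusted p under 0.05). The fit had 2 residual degrees of freedom, and LM1, with 1 array, adds no spread of its own. Without either SN12C array 5140 probe sets passed, after quantile normalization 512 and with arrays centred 1286, so these p-values give no firm verdict on any gene.

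The largest differences between LM2 and LM1 lay in both directions. H2BC12L stood 1.83 ± 0.35 (SE) log2 units higher in LM2 (limma, adjusted p = 0.134) and GABPA 1.66 ± 0.61 higher (adjusted p = 0.267). On the other side EVA1C differed by -1.38 ± 0.42 (adjusted p = 0.214), LINC01694 by -1.30 ± 0.26 (adjusted p = 0.139) and URB1 by -1.21 ± 0.24 (adjusted p = 0.138). EVA1C read 6.01 and 6.87 in SN12C, 8.24 in LM1 and 6.87 on both LM2 arrays, so its LM2 value equalled that of SN12C replicate 2. CBR3, the reductase with the largest LM1 difference from SN12C (2.55), differed by -1.10 ± 0.18 (adjusted p = 0.119). The errors and p-values come from the SN12C and LM2 pairs alone, so they hold no LM1 spread. The second probe set of GABPA differed from SN12C by 0.34 in LM2 and 0.47 in LM1, against 0.98 and -0.68 for the first.

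Promoter letters were counted over all members with a RefSeq window. Of the 164 genes 119 had one, 70 of the 88 brighter genes and 49 of the 76 dimmer. The ETS-type motif (CCGGAAG, both strands) stood in 15 of 70 windows of brighter genes (21.4%) and 4 of 49 of dimmer genes (8.16%), against 14.1% of all genes that passed the minimum and 8.82% of all windows. The NF-Y motif CCAAT, both strands, stood in 30.0% and 16.3%, against 34.3% of all passing genes and 33.0% of all windows. The AP-1 motif TGACTCA, both strands, stood in 0 of 70 windows of brighter genes and 6.12% of dimmer ones, against 2.78% of all passing genes and 4.16% of all windows. A match is a description of the sequence, and no binding was measured.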

How the data were processed

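Total RNA of 5 samples of 3 human renal cell carcinoma lines was measured on Affymetrix arrays of 54675 probe sets. The values the authors deposited are log2 signals, 1 for each probe set on each array. Per the submitters' processing notes they come from RMA and Partek, for which no version is named. RMA removes differences in total signal between arrays, so a difference is relative to the other genes. No value was transformed again.

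Of the probe sets 62 controls, 1801 that name several genes and 11777 that the platform table does not list were left out. These groups overlap, so their counts do not add up to the number left out. Of 41091 probe sets of 1 gene, 41037 matched the RefSeq gene table (GRCh38.p14), which gave chromosomes and gene order only. A probe set passed at a log2 signal of 6 on 2 arrays, and a gene was read through its passing probe set of highest mean. Probe sets ending in _x_at or _s_at can bind several transcripts. "Above without overlap" means that the lowest array of a group exceeds the highest of the other.

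limma 3.58.1 in R 4.3.3 (lmFit, eBayes, 1 mean per line, all 5 arrays, Benjamini-Hochberg over 27932 probe sets, threshold 0.05) was tested on simulated data first. With 2 against 2 arrays the smallest two-sided p of an exact permutation test is 0.333. Tables were handled with pandas 2.3.3 and figures drawn with matplotlib 3.10.9.

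The members, the 7 role lists and the 9 partner lists were chosen with earlier results of these data known. Named were up to 10 genes highest and 5 lowest in LM2 without overlap, up to 4 per role list, the 5 with the widest probe set range, the 5 with the largest LM2 minus LM1 difference, and the partner lists (47 genes of chromosome 21). Other genes, such as the 11 bright genes that overlapped, were named after their values were seen. Alternatives covered the signal minimum, the probe set rule, probe set types, quantile normalization, centring, eBayes with trend, the arrays in the fit, each array left out and a replicate block. The limits at a mean of 8, over all or the SN12C arrays, and the exclusion of tied genes were added after seeing the data.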

Additional observations from a re-analysis of the deposited data

Results flagged for a closer look

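Through the brightest probe set of each gene, LM2 and LM1 lay on opposite sides of both SN12C arrays in 6 of the 164 chromosome 21 genes. That is a smaller share than the 5.8% of all genes (875 of 15092). Probe sets other than the brightest are in neither count, and some lay on opposite sides in further genes, such as USP16 (0.90 in LM2 and -3.61 in LM1). In all 6 counted genes, both LM2 arrays were above and the LM1 array below. The differences from SN12C in LM2 and LM1 were 0.50 and -0.23 log2 units for BTG3, 0.98 and -0.68 for GABPA and 0.14 and -0.06 for RCAN1. They were 0.57 and -0.20 for PIGP, 0.16 and -0.12 for VPS26C, and 1.44 and -0.39 for H2BC12L. The second probe set of VPS26C also lay on opposite sides, at 0.28 and -0.37. Those of GABPA (0.34 and 0.47) and BTG3 (0.67 and -0.11) and the others of RCAN1 did not lie on opposite sides of both SN12C arrays. In limma the adjusted p of LM2 against LM1 ran from 0.118 for PIGP to 0.459 for RCAN1, with no LM1 spread in it, since LM1 has 1 array. The LM1 array is also the array with the large 3' excess of beta-actin, 3.43 log2 units, and the part of that in these values was not tested.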

How the results depend on the processing

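The median LM2 minus SN12C difference of chromosome 21 genes stayed above 0 and above that of all genes under each alternative run. With no minimum it was 0.06 (16 genes below without overlap, LM1 median 0.08, first and second blocks 0.00 and 0.21). With a mean of at least 7 it was 0.47 (2 below, LM1 0.53, LM2 minus LM1 -0.04, blocks LOC105379499 to EVA1C and KCNJ15 to CSTB 0.51 and 0.45). With a mean of at least 8 it was 0.65 (2 below, LM1 0.65 with 10 below, LM2 minus LM1 -0.05, and 0.58, 0.65, 0.66 and 0.68 in 4 new blocks). With an SN12C mean of at least 8 it was 0.63 (2 below, LM1 0.63 with 10 below, LM2 minus LM1 -0.04, and 0.58, 0.53, 0.66 and 0.66 in 4 new blocks). Without genes tied within a line it was 0.44 (LM1 0.49, LM2 minus LM1 -0.05, these blocks 0.49 and 0.28). The mean of all passing probe sets gave 0.12 for LM1 and 0.00 for LM2 minus LM1. Without _x_at and _s_at probe sets, 5 genes were below in LM2 and 15 in LM1. Quantile normalization gave 17 below and -0.08 for LM2 minus LM1, and limma then called 1303 probe sets for LM1 against SN12C (506 higher, 797 lower) and 512 for LM2 against LM1. Centring gave -0.10 for LM2 minus LM1, 0.13 and -0.04 for these blocks, with 5, 1989 and 1286 limma calls for LM2 against SN12C, LM1 against SN12C and LM2 against LM1. The cause of these moves was not tested, beyond the fewer or more genes each setting keeps.

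Leaving out each array in turn gave 0.22 to 0.38 for the LM2 median, 94 to 118 genes above, 10 to 49 below (49 without SN12C replicate 2), 0.22 to 0.35 for the LM1 median, 90 to 119 above, 24 to 56 below (56 without SN12C replicate 2), and -0.03 to -0.01 for LM2 minus LM1. The blocks gave 0.12 to 0.24, 0.24 to 0.41, 0.00 to 0.13 and 0.24 to 0.56. The limma calls ran from 0 to 6862 for LM2 against SN12C (6862 without SN12C replicate 2), 0 to 8983 for LM1 against SN12C and 0 to 5140 for LM2 against LM1. Where an array is left out, the lone SN12C or LM2 array is assumed to vary like the other pair, and the spread then comes from 1 pair.

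SN12C and LM2 share only replicate numbers: their deviations between replicates 1 and 2 correlated at r = 0.071 over 27932 probe sets. With a replicate block limma made 0 calls (lowest adjusted p = 0.64), and the median was 0.30. For the 47 named genes, 583 of 620 values under the alternatives moved by less than the spread between replicates, 33 moved more in the same direction and 4 changed sign. These were APP (0.58 with the mean of all passing probe sets, 0.08 without SN12C replicate 1, against -0.36 without SN12C replicate 2) and DIP2A (0.40 with the mean of all passing probe sets, 0.60 without _x_at and _s_at probe sets). A probe set near the minimum of 6 has little signal over background, which limits what its differences can show.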
